A study of Rattus norvegicus with 30 samples.

Results

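The autophagy genes read here together with Sqstm1 were 10 genes chosen by symbol, out of 21993 genes listed for primary rat hippocampal neurons. They were the cargo receptor Sqstm1, the ATG8 genes Map1lc3a, Map1lc3b and Gabarapl1, the early pathway genes Wipi1, Ulk1 and Becn1, the conjugation genes Atg5 and Atg7, and the transcription factor Tfeb. All 10 were listed in every table and passed the filter on low counts in every comparison. The neurons were wild-type cells taken from Wistar rat embryos at day 18 and kept for 7 days in culture, and their RNA was sequenced after 4 or 24 h of treatment. The 10 groups were 30 µM DMF, 30 µM MMF and their vehicle DMSO, and 6 µM CBD and its vehicle EtOH, each at both times, with vehicle at 0.2% in all of them. Each group had 3 libraries, numbered 1 to 3, from 3 independent experiments. The study asked how the transcriptional response of neurons differs between these drugs. DMF is the dimethyl ester of fumaric acid, MMF is the monomethyl ester that forms from it, and CBD (cannabidiol) is a compound of the cannabis plant.

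In autophagy, a double membrane closes around cytoplasm, proteins or organelles, and the resulting vesicle fuses with a lysosome, where its contents are degraded. The ULK1 kinase complex starts the process, a lipid kinase complex that contains Beclin 1 marks the growing membrane, WIPI proteins bind that mark, and ATG5 and ATG7 take part in attaching LC3 and GABARAP proteins to the membrane lipid. p62, the product of Sqstm1, binds ubiquitinated cargo and LC3, and is itself degraded with the cargo. It also binds KEAP1, the repressor of the transcription factor Nrf2, and Sqstm1 is a known Nrf2 target. In neurons, which do not divide, this pathway clears aggregated proteins and worn-out mitochondria. RNA levels do not measure the flow through the pathway.

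The members called by the main test were Sqstm1 and Gabarapl1, and the stretches before their starts are shown with that of Wipi1. Wipi1, Ulk1 and Map1lc3b were called only in alternative fits, and the stretches of Ulk1 and Map1lc3b are not printed. RefSeq promoters were matched for 8 of the 10 members, all but Map1lc3a and Becn1, and each printed stretch is the 250 bases before the annotated start in the GRCr8 build, on the gene's strand. Capitals mark GGGCGG on either strand and TATAAA. The stretch of Sqstm1 lies at chr10:35037751-35038000 on the minus strand and that of Gabarapl1 at chr4:164666082-164666331 on the plus strand. That of Wipi1 lies at chr10:95079294-95079543 on the minus strand.
Sqstm1: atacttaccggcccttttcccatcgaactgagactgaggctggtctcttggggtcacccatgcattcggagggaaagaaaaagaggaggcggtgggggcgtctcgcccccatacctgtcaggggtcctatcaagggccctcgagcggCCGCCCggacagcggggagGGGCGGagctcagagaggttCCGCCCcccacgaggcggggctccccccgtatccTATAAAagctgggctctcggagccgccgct
Gabarapl1: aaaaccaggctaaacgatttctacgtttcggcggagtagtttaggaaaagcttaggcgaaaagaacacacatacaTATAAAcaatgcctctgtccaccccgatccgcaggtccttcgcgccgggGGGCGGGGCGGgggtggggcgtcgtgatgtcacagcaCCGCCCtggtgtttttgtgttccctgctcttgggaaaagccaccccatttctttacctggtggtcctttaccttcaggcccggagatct
Wipi1: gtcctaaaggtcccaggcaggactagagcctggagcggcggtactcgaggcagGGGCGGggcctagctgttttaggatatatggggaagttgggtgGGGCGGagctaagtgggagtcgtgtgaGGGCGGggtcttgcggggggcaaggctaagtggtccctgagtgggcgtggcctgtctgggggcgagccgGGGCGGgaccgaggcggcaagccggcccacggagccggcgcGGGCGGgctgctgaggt

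The stretch of Sqstm1 held GGGCGG 3 times, that of Gabarapl1 3 times and that of Wipi1 5 times. Of the 8 members, 6 held it at least once, against 30.47% of the 33469 promoters searched. It was not found in those of Ulk1 and Map1lc3b. TATAAA lay 30 bases before the start of Sqstm1 and 175 bases before that of Gabarapl1, and 12.93% of all promoters held it. CACGTG, the core of the E box that TFEB binds, was found in Atg5 alone and in 5.59% of promoters. TGACNNNGC, a core of the site that Nrf2 binds with a small Maf protein, was found in 0 of the 8 members and in 10.08% of promoters. TGATGNAA, a core of the ATF4 and C/EBP site, was found in 0 members and in 3.40% of promoters. All motifs were searched on both strands, within these 250 bases only.

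Between 15108132 and 25367834 reads per library lay on genes. Levels are read counts divided by a size factor per library, called normalised read counts, and were compared on the log2 scale with limma. A gene was called when its adjusted p, over all genes tested, was under 0.05, and a fold change was taken from log2 of the value with 1 added. All 11 neuron markers were detected in each library, with summed levels between 5251 and 7018 CPM, which are reads scaled to the same total in each library, and those of 7 astrocyte markers lay between 1823 and 4854 CPM, in cultures for which no step that removes glia is named. The 7 microglia markers summed to between 1.14 and 10.3 CPM, with Cx3cr1 at 0 in 11 libraries. Libraries of the same replicate number deviated together. A fit with the replicate number as a block is therefore given beside the results whose calls it changed, and beside some others. Fewer cells of a type and less RNA per cell cannot be told apart in these libraries.

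**Figure D1:**
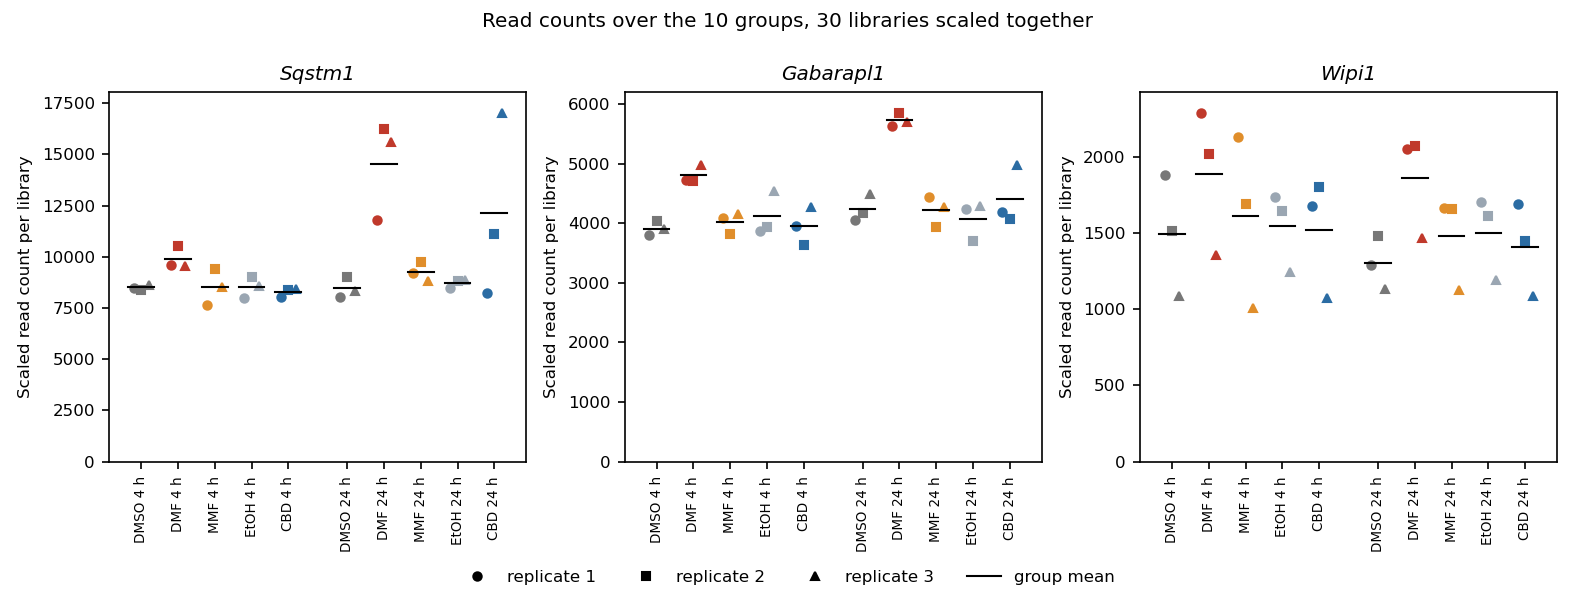
Read counts of Sqstm1, Gabarapl1 and Wipi1 in each of the 30 libraries (vertical axis, counts scaled over all 30 libraries together) by group (horizontal axis). Points are libraries, their shape is the replicate number, and black lines are group means. Sqstm1 was highest in 1 CBD library at 24 h (17018) and the DMF libraries at 24 h (11793 to 16236), Gabarapl1 was highest in DMF at 24 h, and replicate 3 of Wipi1 was the lowest in every group.

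Sqstm1 encodes p62 and lies at chromosome 10, positions 34525519 to 34536673, in mRatBN7.2. Scaled over all 30 libraries, its mean was 14550 ± 2407 (SD, n = 3) in DMF at 24 h, 12119 ± 4484 in CBD at 24 h, 9908 ± 552 in DMF at 4 h and 9243 ± 465 in MMF at 24 h. The other 6 groups had means between 8295 and 8702. In this order, 0 of the 9 pairs of neighbouring groups were free of overlap between their libraries. The 4 vehicle groups in particular lay within 8468 to 8702, at both times.

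After 24 h of DMF, Sqstm1 rose. Its normalised counts were 11235, 15462 and 14879 in the DMF libraries, and 7663, 8601 and 7934 in the DMSO libraries of the same numbers. The DMF libraries all lay above the DMSO libraries. The mean was 13859 ± 2291 against 8066 ± 483 (SD, n = 3), a log2 fold change of 0.77 (SE 0.118, 95% interval 0.50 to 1.03) or 1.70-fold, with an adjusted p of 0.0092 by limma. The log2 ratios within replicate numbers were 0.55, 0.85 and 0.91. The call was lost without DMSO replicate 1, where the log2 fold change was 0.73 and the adjusted p 0.072.

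After 4 h of DMF, the difference in Sqstm1 was smaller. The counts were 9857, 10852 and 9864 with DMF and 8726, 8670 and 8948 with DMSO, so the groups did not overlap. The log2 fold change was 0.21 (SE 0.0744, interval 0.043 to 0.38), with an adjusted p of 0.157 by limma. The blocked fit gave this log2 fold change an adjusted p of 0.0062. The change at 24 h minus that at 4 h was 0.55 on the log2 scale (SE 0.147, interval 0.23 to 0.87), tested as an interaction in 12 libraries. Its adjusted p was 0.0542 by limma, 0.047 by edgeR, 0.0071 by DESeq2 and 0.0042 with the block.

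MMF and CBD gave no call on Sqstm1. With MMF at 4 h the counts were 7177, 8856 and 8023 against 7972, 7912 and 8164 with DMSO, a log2 fold change of -0.0047 (interval -0.22 to 0.21). With MMF at 24 h they were 9203, 9745 and 8794 against 8062, 9034 and 8333. Here the MMF library was the higher one in each of the 3 replicate numbers, with ranges that overlapped, and the log2 fold change was 0.13 (interval -0.018 to 0.27, adjusted p 0.952 by limma). With the block the interval was 0.039 to 0.21, above 0, but the adjusted p of 0.162 gave no call. With CBD at 4 h they were 8151, 8497 and 8517 against 8079, 9122 and 8685 with EtOH, a log2 fold change of -0.039 (interval -0.20 to 0.12).

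CBD at 24 h was uneven between replicate numbers. Sqstm1 counts were 8028, 10885 and 16588 with CBD, and 8274, 8601 and 8667 with EtOH. The log2 ratios by replicate number were -0.04, 0.34 and 0.94, so that CBD replicate 1 was at its vehicle's level and CBD replicate 3 was above every DMF library at 24 h on the common scale (17018 against at most 16236). The log2 fold change was 0.41 (SE 0.226, interval -0.11 to 0.93, adjusted p 0.590 by limma). With the block its interval was 0.030 to 0.79 (adjusted p 0.236). By limma without the block, the log2 fold change was 0.66 without CBD replicate 1 (adjusted p 0.138). It was 0.14 without CBD replicate 3 (adjusted p 0.876). Whether the treatment or the label of CBD replicate 1 differed was not tested, so the mean and the missing calls with CBD at 24 h rest on 3 unlike libraries. The same order of replicates ran through the 10 genes of Nrf2 and its targets, all 10 of which had their highest ratio in replicate 3, with medians of 0.07, 0.65 and 1.86. It also ran through the 8 genes of ATF4 and its targets, with medians of -0.14 in replicate 1 and 2.65 in replicate 3.

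**Figure D2:**
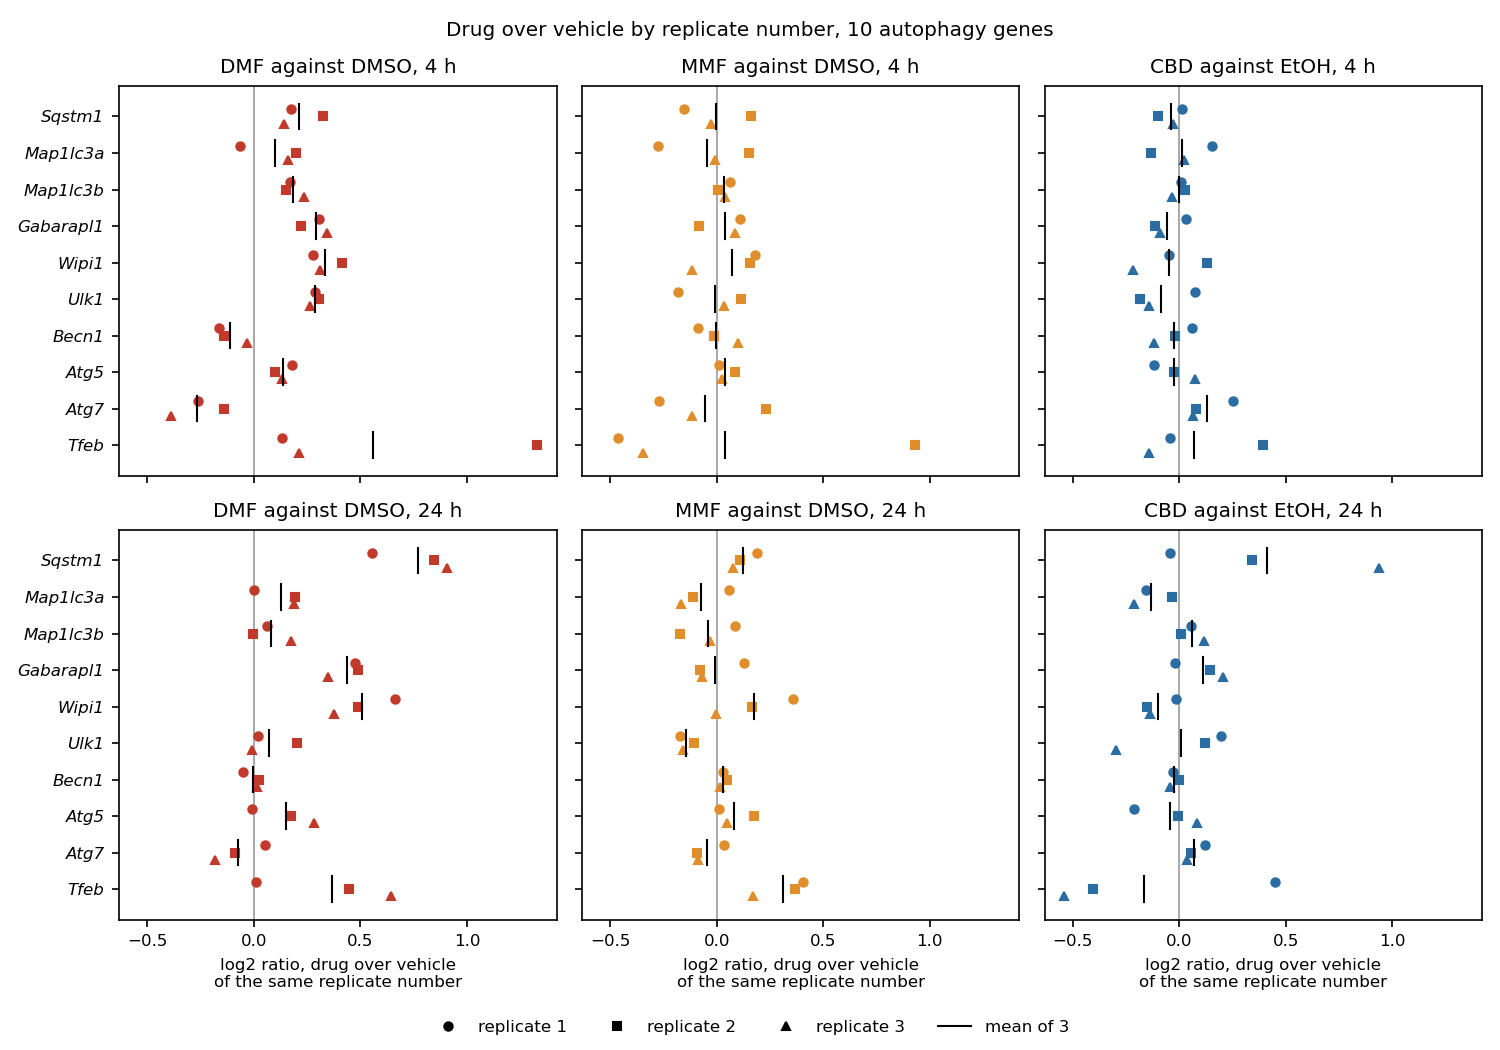
Log2 ratios of each drug over its vehicle (horizontal axis) for the 10 members (rows), at 4 h and 24 h. Points are the 3 replicate numbers and black lines their means. At 24 h the DMF ratios ran from 0.55 to 0.91 for Sqstm1 and from 0.35 to 0.49 for Gabarapl1. Those of Wipi1 ran from 0.38 to 0.66, and limma without the block did not call it. The CBD ratios of Sqstm1 at 24 h ran from -0.04 to 0.94.

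Of the 10 members, 2 were called after 24 h of DMF, Sqstm1 and Gabarapl1, both higher, while 3.97% of the 13967 genes tested were called. With the replicate block 3 were called, Sqstm1, Gabarapl1 and Wipi1, against 12.9% of genes. The ranges of DMF and DMSO libraries did not overlap for 2 members, against 22.8% of genes. The median log2 fold change of the members was 0.14, beside -0.0065 for all genes, and 8 of the 10 were above 0. The count was 0 without DMSO replicate 1 and 3 without DMF replicate 3.

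After 4 h of DMF, 0 members were called by limma and by edgeR, 1 by DESeq2 (Gabarapl1), while limma called 3.41% of 14208 genes. By limma without the block, 5 members had an unadjusted p under 0.05, as had 2852 of all genes tested. With the replicate block 5 members were called, Sqstm1, Map1lc3b, Gabarapl1, Wipi1 and Ulk1, all higher, against 23% of genes. The ranges did not overlap for 7 members, 5 of them higher in DMF, against 26.3% of genes. The median log2 fold change was 0.20, beside 0.0022 for all genes.

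The ATG8 proteins coat the autophagic membrane and hold cargo receptors to it. Gabarapl1, a member of the GABARAP branch, was at 5366, 5572 and 5428 normalised counts after 24 h of DMF and at 3861, 3968 and 4264 in DMSO. No DMF library came near a DMSO library. Its log2 fold change was 0.44 (SE 0.0616, interval 0.30 to 0.58), 1.35-fold, with an adjusted p of 0.0063 by limma. Without DMSO replicate 1 the log2 fold change was 0.41 and the adjusted p 0.0572.

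At 4 h Gabarapl1 was already apart, at 4841, 4851 and 5133 with DMF against 3912, 4168 and 4043 with DMSO. The log2 fold change was 0.29 (SE 0.0655, adjusted p 0.0534 by limma, 0.0039 by DESeq2 and 6.0e-04 with the replicate block). The increase from 4 to 24 h in this effect, 0.15 on the log2 scale (interval -0.0315 to 0.322, adjusted p 0.364 by limma), was not called. Gabarapl1 had the largest share of its variation between the 10 groups, 80.7%, of the members. Over those groups its mean was 5727 ± 112 in DMF at 24 h and 4804 ± 153 in DMF at 4 h, and between these neighbours the libraries did not overlap. The other 8 groups, from 3911 to 4412, overlapped with their neighbours in the order.

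Map1lc3a and Map1lc3b, which encode LC3A and LC3B, moved less. Map1lc3b was at 1735, 1780 and 2010 after 4 h of DMF and at 1543, 1605 and 1706 in DMSO. The ranges did not overlap, and the log2 fold change was 0.19 (SE 0.0807, adjusted p 0.248 by limma, 0.0226 with the replicate block). At 24 h its ranges overlapped, at 1594, 1831 and 1781 against 1526, 1836 and 1577, and the log2 fold change was 0.08 (interval -0.12 to 0.28). Map1lc3a was at 3232, 3593 and 4271 against 3381, 3137 and 3821 at 4 h, and at 3508, 4182 and 4291 against 3512, 3664 and 3769 at 24 h. Its log2 fold changes were 0.10 (interval -0.17 to 0.36) and 0.13 (interval -0.064 to 0.31), and replicate 1 was the lower one with DMF at both times.

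Wipi1 binds the phosphoinositide on the growing membrane. It is the member in which the replicate number carried most of the variation, 68.4%, against 21.9% between groups. At 24 h it was at 1953, 1973 and 1395 with DMF and at 1232, 1408 and 1075 with DMSO. DMF replicate 3 lay below DMSO replicate 2, so the ranges overlapped, yet each DMF library was above its own DMSO library, by log2 ratios of 0.66, 0.49 and 0.38. The log2 fold change of 0.51 (1.42-fold) had an SE of 0.145 and an adjusted p of 0.0988 by limma. With the replicate block the SE was 0.0659 and the adjusted p 0.0010, and DESeq2 gave 0.0089.

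At 4 h Wipi1 was at 2347, 2079 and 1395 with DMF and at 1938, 1562 and 1127 with DMSO. The log2 ratios by number were 0.28, 0.41 and 0.31, and the log2 fold change was 0.33 (SE 0.230, adjusted p 0.482 by limma). With the replicate block the SE fell to 0.0559 and the adjusted p to 6.0e-04. The summed astrocyte markers also differed between replicate numbers within a group, as in DMSO at 4 h, from 2176 to 3853 CPM. Their part in the spread of Wipi1 was not tested.

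Ulk1 encodes the kinase that starts autophagy. After 4 h of DMF it was at 2889, 2780 and 3322, and in DMSO at 2369, 2249 and 2771. The lowest DMF library was just above the highest DMSO library. The log2 ratios were 0.29, 0.31 and 0.26, close to each other, and the log2 fold change was 0.28 (SE 0.101, adjusted p 0.166 by limma). With the replicate block the SE was 0.0498 and the adjusted p 8.1e-04. At 24 h the counts overlapped, at 2365, 2389 and 2299 with DMF and 2334, 2079 and 2313 with DMSO, and the log2 fold change was 0.07 (interval -0.079 to 0.22). In the order of groups DMF at 4 h stood first for Ulk1, at 2914 ± 274, without overlap with the next, DMF at 24 h at 2468 ± 49.4. The difference between the effects at 24 and 4 h, -0.22 (interval -0.48 to 0.051), was not called by limma (adjusted p 0.373).

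Becn1, Atg5 and Atg7 did not give a call in any comparison, with or without the replicate block. Becn1 encodes the Beclin 1 subunit of the lipid kinase complex and had the smallest range of the 10 members over the 30 libraries, 1.20-fold from lowest to highest. It was at 1589, 1497 and 1632 after 4 h of DMF and at 1778, 1651 and 1668 with DMSO, a log2 fold change of -0.11 (interval -0.27 to 0.048). Every DMF library was lower than every DMSO library. At 24 h the difference was -0.0042 (interval -0.17 to 0.16).

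Atg5 encodes a part of the complex that attaches ATG8 proteins to lipid. At 4 h it was at 804, 815 and 805 with DMF and 712, 762 and 734 with DMSO, without overlap, a log2 fold change of 0.14 (interval -0.030 to 0.30, adjusted p 0.352 by limma). At 24 h the log2 fold change was 0.15 (interval -0.030 to 0.33) and the ranges overlapped. Atg7, whose product activates the ATG8 proteins, was the other gene that lay lower at 4 h. It was at 273, 298 and 283 against 328, 329 and 371, a log2 fold change of -0.26 (interval -0.50 to -0.025, adjusted p 0.208 by limma and 0.0676 with the block). At 24 h it was -0.07 (interval -0.33 to 0.18).

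Tfeb encodes a transcription factor of lysosome and autophagy genes and had few reads, from 25 to 120 per library. It was at 80, 94 and 50 after 4 h of DMF against 73, 37 and 43 with DMSO, and at 46, 66 and 49 against 46, 49 and 31 at 24 h. The DMF library was the higher one in all 3 numbers at each time, but the ranges overlapped. The log2 fold changes were 0.55 (interval -0.19 to 1.29) and 0.36 (interval -0.19 to 0.91), and neither was called. The replicate number carried 50.2% of its variation, and with the block the SE at 4 h was 0.235 in place of 0.323 (adjusted p 0.106).

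With MMF, 0 of the 10 members were called at 4 h by limma, edgeR, DESeq2 or limma with the block. By limma with or without the block, 0 had an unadjusted p under 0.05. Limma called 0% of the 14032 genes there, with and without the block. The DMSO libraries are the ones that DMF was compared with. At 24 h 0 were called by any of these, and 1 had an unadjusted p under 0.05 by limma without the block. That was Ulk1, at 2179, 2031 and 2181 with MMF and 2456, 2183 and 2430 with DMSO, with a log2 fold change of -0.14 (interval -0.28 to -0.0040, adjusted p 0.952 by limma). With the block, Ulk1 (lower), Sqstm1 and Wipi1 (both higher) had unadjusted p-values of 0.0041, 0.0073 and 0.0106. Their adjusted p-values with the block were 0.126, 0.162 and 0.192. The share of all genes called was 0.00707%, and 1.38% with the block. The medians of the members were 0.02 and 0.01 on the log2 scale, beside -0.011 and -1.7e-04 for all genes.

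With CBD, 0 members were called at 4 h or at 24 h by the same 4 tests. By limma without the block, 0 had an unadjusted p under 0.05 at either time. With the block, Sqstm1 at 24 h had an unadjusted p of 0.0378 and an adjusted p of 0.236. Limma called 0.00705% of genes at 4 h and 0.114% at 24 h, and 2.33% and 0.504% with the block. The members' medians were -0.025 and -0.0096, beside -6.6e-04 and -0.0047 for all genes. At 4 h the largest log2 difference was 0.13 for Atg7 (interval -0.10 to 0.37). At 24 h it was the one of Sqstm1 given above, and Gabarapl1 was at 4092, 3992 and 4843 against 4149, 3614 and 4206, a log2 fold change of 0.11 (interval -0.13 to 0.35).

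DMF and MMF, which differ by 1 methyl ester group, were compared directly at the same dose and times, in tables of their own scaling. These comparisons share the DMF libraries with those against DMSO. All 10 members were compared at both times, with p-values adjusted over all genes tested. At 24 h Sqstm1 was at 12418, 17092 and 16421 with DMF and at 9705, 10240 and 9255 with MMF. All DMF libraries were above all MMF libraries, with a log2 fold change of 0.64 (SE 0.119, interval 0.37 to 0.91, adjusted p 0.0246 by limma). Gabarapl1 was at 5931, 6160 and 5990 against 4677, 4145 and 4500, a log2 fold change of 0.44 (SE 0.0658, interval 0.29 to 0.59, adjusted p 0.0094). The 2 genes were the members called, against 3.56% of genes. The ranges did not overlap for 3 members, these 2 and Ulk1, against 22.7% of genes.

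With the replicate block 4 members were called between DMF and MMF at 24 h, against 12.2% of genes, since Wipi1 and Ulk1 were added. Wipi1 was at 2159, 2181 and 1540 with DMF and 1753, 1745 and 1186 with MMF (log2 fold change 0.33, SE 0.178, adjusted p 0.387 by limma and 0.0051 with the block). Ulk1 was at 2614, 2641 and 2537 against 2298, 2134 and 2295 (log2 fold change 0.21, interval 0.073 to 0.35, adjusted p 0.112 by limma and 0.0427 with the block). Without DMF replicate 2 the count by limma was 0. Without MMF replicate 1, 2 or 3 it was 1, Gabarapl1, and the adjusted p of Sqstm1 was 0.117, 0.0686 and 0.0662.

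At 4 h 0 members were called between DMF and MMF by limma, edgeR and DESeq2, with 1.61% of genes called by limma. By limma without the block, Gabarapl1 and Ulk1, 2 of the 10, had an unadjusted p under 0.05. So had 2477 of the 14200 genes tested, a share near that of the members. With the block 4 were called, Sqstm1, Gabarapl1, Wipi1 and Ulk1, against 23.6% of genes. Sqstm1 was at 9760, 10732 and 9745 with DMF and 7801, 9628 and 8728 with MMF, a log2 fold change of 0.21 (interval -0.019 to 0.44, adjusted p 0.328 by limma and 0.0053 with the block). For Map1lc3a, Map1lc3b, Becn1, Atg5, Atg7 and Tfeb no difference between the 2 esters was called at either time. The intervals for Becn1 were -0.29 to 0.054 at 4 h and -0.20 to 0.12 at 24 h, and those for Tfeb were -0.26 to 1.26 and -0.56 to 0.66.

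**Figure D3:**
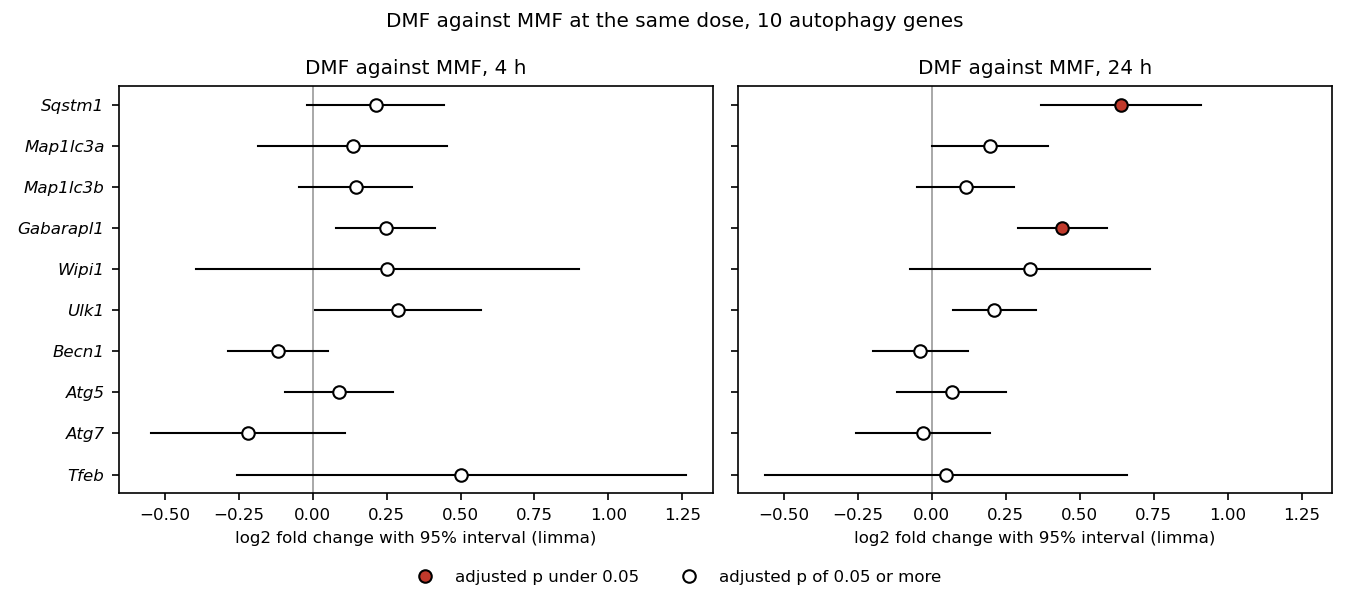
Log2 fold changes of DMF over MMF (horizontal axis) for the 10 members (rows) at 4 h and 24 h, with 95% intervals as bars. Filled points had an adjusted p under 0.05 by limma without the block. At 24 h Sqstm1 (0.64) and Gabarapl1 (0.44) were filled, and at 4 h none was.

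Between the times, the effect of DMF differed by the limma interaction for 0 members, with 1 at an unadjusted p under 0.05, Sqstm1. It was called for 4.12% of 14432 genes, and with the block for Sqstm1 and 13.2% of genes. Without DMF replicate 1 at 24 h, Sqstm1 was called by limma, with a difference of 0.70 and an adjusted p of 0.0047. The corresponding differences for MMF and CBD gave 0 members called by limma, edgeR, DESeq2 or the block. By limma without the block, 0 members had an unadjusted p under 0.05, and 0% of genes were called.

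Few other genes of the pathway were called with DMF. In the list of 10 autophagy initiation genes, which holds the partners of ULK1 and the ATG9 and WIPI relatives, 0 were called at 24 h by limma. An unadjusted p under 0.05 was found for 3 of them and for 2435 of all 13967 genes. The 3 with the smallest p were Wdr45 (log2 fold change 0.34, SE 0.0975), Atg9a (0.20, SE 0.0622) and Atg13 (0.16, SE 0.0609). All 10 lay above 0, with a median of 0.10, and 2 were called with the block, Wdr45 and Atg9a, against 12.9% of all genes. At 4 h 0 were called by limma, and the median was -0.0064. The block called 1 there, Atg9a at 0.15, against 23% of all genes.

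Of the 7 genes of the PI3K complex and nucleation, 1 was called at 4 h, and it was lower. Pik3r4, a regulatory subunit of the lipid kinase complex, fell by 0.41 on the log2 scale (SE 0.0722, adjusted p 0.0285 by limma), and the catalytic subunit gene Pik3c3 was at -0.35 (SE 0.0873, adjusted p 0.0666, and 0.0041 with the block). The third was Rubcn, an inhibitor of the complex, at 0.15 (adjusted p 0.259, and 0.0332 with the block). The median was -0.10. At 24 h 0 of the 7 were called and the median was 0.11. In the interaction, where 4.12% of all genes were called, the effect of DMF on Pik3c3 and Pik3r4 was higher at 24 h than at 4 h, by 0.46 (SE 0.113) and 0.56 (SE 0.0998). Deptor (0.89, SE 0.213) and Nqo1 (1.71, SE 0.355) were the other genes called there among the 9 lists.

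Among the genes of ATG8 conjugation, 0 of the 9 tested were called at either time by limma or with the block, with medians of 0.03 and 0.06. Of the 14 other cargo receptors tested, 0 were called at either time, with medians of 0.04 and 0.01. Among them Tex264, a receptor for the endoplasmic reticulum, was at 0.20 (SE 0.079) and 0.21 (SE 0.0788). With the block 3 were called at 4 h, Tollip, Bnip3l and Tex264, of which Bnip3l was lower. The block called 23% of all genes there, a share near that of these receptors. Of the 11 proteasome subunits 0 were called at either time by limma, with medians of -0.029 and 0.06, and the block called 1 at 4 h, Psmc4, which was lower.

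Of the 22 lysosome genes 0 were called by limma at either time, and 7 had an unadjusted p under 0.05 at 24 h, again beside 2435 of 13967 genes. There, 21 of the 22 lay above 0, with a median of 0.16 beside -0.0065 for all genes. Among those with the smallest p were Grn, which encodes progranulin (0.41, SE 0.105), and the protease gene Ctsd (0.28, SE 0.0787). With the block 6 were called, all higher, against 12.9% of all genes. At 4 h the median was 0.06, and the block called 2 higher and 1 lower, against 23% of all genes. In the list of 17 genes of the TFEB family and mTORC1, Deptor, an inhibitor of mTOR, rose by 0.84 at 24 h (SE 0.157, adjusted p 0.0232 by limma). Foxo1, a transcription factor of autophagy genes, fell by 0.80 on the log2 scale at 4 h (SE 0.120, adjusted p 0.0196 by limma). The medians were 0.12 at 24 h and 0.04 at 4 h. With the block 4 were called at 24 h, all higher, and 4 higher and 2 lower at 4 h, beside the same shares of all genes.

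By the medians of their lists, genes of the stress responses moved far more after DMF than the 10 members. The study itself reports several genes of the Nrf2 list as raised by DMF in these neurons, so this contrast is a description only. Of the 10 genes of Nrf2 and its targets, 8 rose after 24 h of DMF, with a median of 1.57 for the list. They were Hmox1 (3.09, SE 0.384), Osgin1 (3.16, SE 0.370), Srxn1 (3.05, SE 0.368), Nqo1 (2.35, SE 0.103), Slc7a11 (2.17, SE 0.353), Nfe2l2 (0.97, SE 0.156), Gclc (0.74, SE 0.0753) and Txnrd1 (0.62, SE 0.118). At 4 h 4 rose, Hmox1 (3.92, SE 0.360), Osgin1 (2.46, SE 0.461), Srxn1 (1.58, SE 0.251) and Txnrd1 (0.68, SE 0.0851). Of the 8 genes of ATF4 and its targets, 5 rose at 24 h (Ddit3, Trib3, Chac1, Sesn2 and Atf3, from 0.99 to 2.90) and 2 at 4 h (Ddit3 at 1.15 and Sesn2 at 1.501). With the block 8 Nrf2 and 6 ATF4 genes were called at each time, all higher, against 12.9% of all genes at 24 h and 23% at 4 h. With MMF and CBD 0 genes of any of these 9 lists were called by limma at either time. With the block 6 Nrf2 genes, 1 ATF4 gene (Ddit4 at 0.24) and 1 cargo receptor (Bnip3 at 0.41, adjusted p 0.0017) were called with MMF at 24 h, all higher, and 2 Nrf2 and 6 ATF4 genes with CBD at 4 h. Of all genes, the block called 1.38% with MMF at 24 h and 2.33% with CBD at 4 h.

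**Figure D4:**
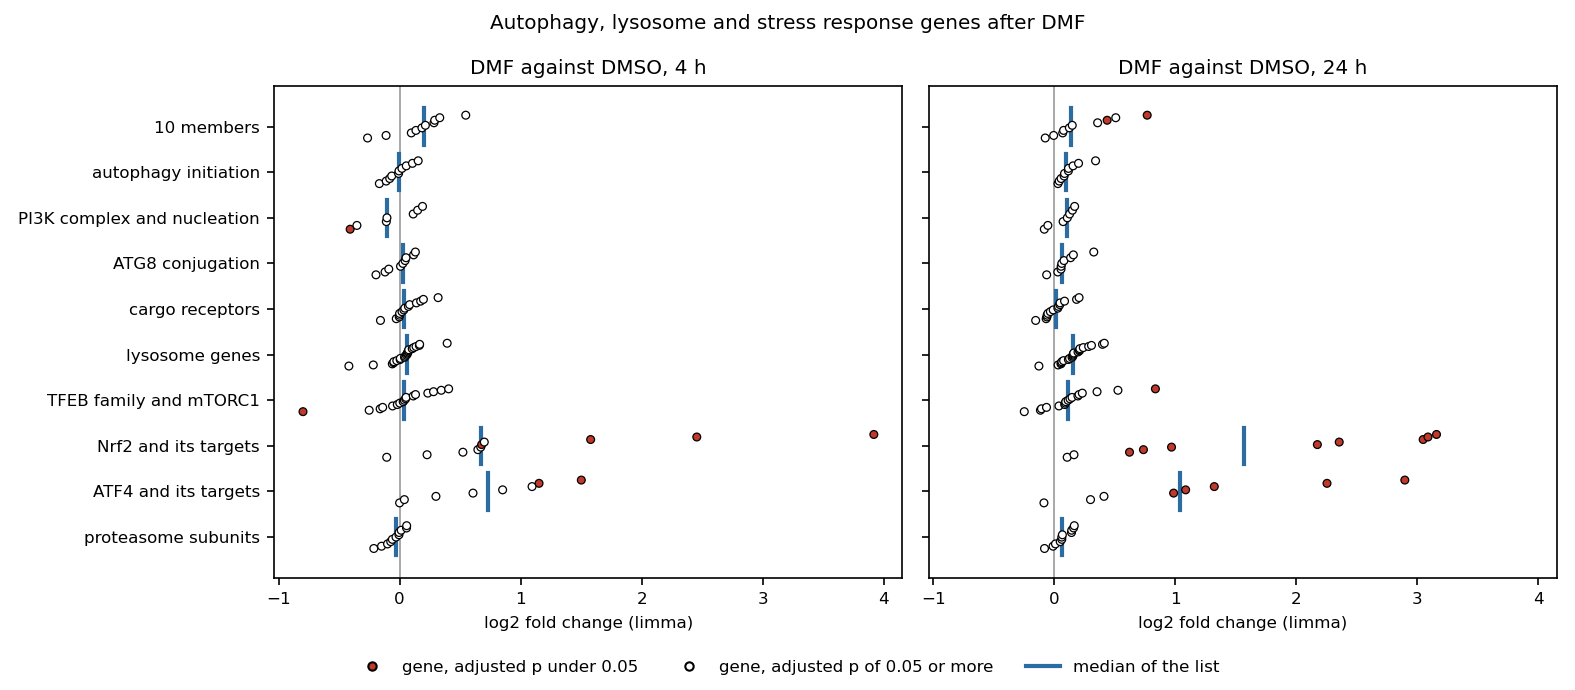
Log2 fold changes of DMF over DMSO (horizontal axis) for the 10 members and for the genes of 9 lists (rows), at 4 h and 24 h. Points are genes, filled where the adjusted p by limma was under 0.05, and blue lines are medians. The medians of the members were 0.20 and 0.14, and those of Nrf2 and its targets 0.67 and 1.57.

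Marker genes also moved with DMF. At 24 h all 6 proliferation markers were lower, and 5 of them fell, Top2a, Cdk1, Mki67, Ccnb1 and Birc5, by 0.97 to 1.47 on the log2 scale. Their summed level was 109 to 132 CPM with DMF and 233 to 256 CPM with DMSO. Of 7 oligodendrocyte lineage markers tested 3 fell, Pdgfra, Cspg4 and Sox10, by 1.56, 1.13 and 1.36 on the log2 scale. The summed neuron markers were 5251 to 6262 CPM with DMF and 6066 to 6804 CPM with DMSO, and 0 of the 11 were called, or 2 with the block, both lower (Tubb3 at -0.49 and Nefl at -0.29). The astrocyte markers went both ways and their sums overlapped. Aldh1l1 fell by 0.65 on the log2 scale and was the one called by limma, while Gfap was at 0.76 and Aqp4 at -0.71, both uncalled by limma. With the block 1 astrocyte marker was higher, Gfap (adjusted p 4.2e-05), and 3 were lower. Of all genes, limma called 3.97% at 24 h, and 12.9% with the block.

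At 4 h, limma called 1 of these markers, the neuron gene Tubb3, which fell by 0.64 on the log2 scale (SE 0.107, adjusted p 0.0250). With the block Gfap (-0.47), Pdgfra (-0.64) and Sox10 (-0.54) were also called lower and 3 proliferation markers, Mki67, Top2a and Ccnb1, higher (0.22 to 0.32). The block added 3 more calls, the neuron markers Rbfox3 (0.23) and Gad1 (-0.15) and the fibroblast marker Dcn (-0.37). Of all genes, limma called 3.41% at 4 h, and 23% with the block. In the interaction of DMF the same 5 proliferation markers as at 24 h and the oligodendrocyte lineage marker Cspg4 were called, all lower at 24 h than at 4 h. With CBD at 24 h the neuron markers Gad1 and Gad2 fell by 0.81 and 0.84 on the log2 scale by limma (adjusted p 0.0134 and 0.0104). All 11 neuron markers were lower there, with a median of -0.24 beside -0.0047 for all genes. By limma 6 of the 11 had an unadjusted p under 0.05, as had 1384 of the 14079 genes tested. The part of these changes in the values of the members was not tested.

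Over the 30 libraries, after the mean of each replicate number was removed, the genes with the pattern most like that of Sqstm1 were Cdkn1a (Pearson's r = 0.932), Gstp1 (0.924), Tmem43 (0.920), Nqo1 (0.913) and Cers5 (0.911), out of 14930 genes. Cdkn1a encodes the cell cycle inhibitor p21, Gstp1 a glutathione transferase, Nqo1 a quinone reductase and Cers5 a ceramide synthase. Sqstm1 was highest with DMF at 24 h in these same libraries, so the choice of the 5 favoured genes high there, and their log2 fold changes in that comparison, 0.46 for Cers5 to 2.35 for Nqo1, are a description. With MMF at 24 h Gstp1, also from the same libraries, was called (0.66, adjusted p 0.0454) and was the one gene called in that comparison. Among the members Gabarapl1 came closest to Sqstm1 (r = 0.816, in place 65), followed by Map1lc3b (0.546), Map1lc3a (0.467) and Wipi1 (0.403). Atg5 was at 0.275, and Ulk1, Becn1, Atg7 and Tfeb lay between -0.029 and 0.050. The points share groups, experiments and depth, so these values describe the 30 libraries.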

How the data were processed

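Per the labels, poly(A) RNA of the cultures was sequenced, and reads went through FastQC 0.12.1, cutadapt 4.4 and Trimmomatic 0.39. The authors mapped them with HISAT2 2.2.1 onto the mRatBN7.2 build, counted them over Ensembl 111 genes with HTSeq 2.0.3 and normalised each pair of groups with DESeq2 1.40.2 in R 4.3.1. The strand setting and the treatment of reads with several alignments are not given in the sources used here. The deposited tables hold a signal per gene and library, which is the read count divided by a size factor of that table's 6 libraries, so that 1 library has other values in another table. They also hold the authors' log2 fold changes and p-values, which were not used. Of the deposited files, 8 were used and 11 were not. Multiplied back, 100% of the deposited signal values gave whole reads, within 0.01 reads. No library was a duplicate of another of its own group within sampling noise, and libraries of different groups were not compared in this way. Depth was 15108132 to 25367834 reads per library, with a median of 20088658, and intervals at 95% come from the model fits.

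Genes kept by filterByExpr in edgeR 4.0.16, on recovered reads, were fitted with limma 3.58.1 in R 4.3.3 as log2 of the normalised count plus 1, with empirical Bayes moderation and a mean trend, each pair alone. p-values were adjusted by the Benjamini-Hochberg method over all genes tested. Differences between times were fitted as an interaction in 12 libraries on median-ratio scaling. The alternatives were edgeR's quasi-likelihood test and DESeq2 1.42.0 on recovered reads, no filter, a pseudocount of 0.1, TMM scaling, the spread of all 30 libraries, the replicate number as a block, and each library left out in turn. The replicate numbers are those in the sample titles. Whether a number stands for the same experiment in every group is not given in the sources used here. The deviations of same-numbered libraries from their group means correlated at 0.129 to 0.668 over the 8 pairs of groups, and those of other numbers at no more than 0.137.

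The fit was tested on simulated data for DMF against DMSO at 24 h (13967 genes, 200 changed), where it found 85.5% of the changed genes with 3.93% false calls, and with the block 87% with 7.45%. For the interaction of DMF (14432 genes, 200 changed) it found 61.5% with 10.9% false calls, and with the block 59% with 1.67%. The changed genes had a median log2 fold change of 1.006 at 24 h, and 0.978 with the block. In the interaction the medians were 1.012 and 1.020. The changes of the members were smaller, so these shares do not give how often changes of their size are found.

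The members, gene lists and tests were chosen with earlier results of these data known. All members are named. Of every other list, in each comparison described, genes with an adjusted p under 0.05 are named, or else up to 3 with the smallest p. A gene of the lysosome list is not reported here by name. The 5 genes most like Sqstm1 were those with the highest Pearson's r over the 30 libraries. Promoter sequences are from RefSeq, on GRCr8. Figures were drawn with matplotlib 3.10.9 in Python 3.11.15.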

Additional observations from a re-analysis of the deposited data

How the results depend on the processing

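Over the 10 members and 8 comparisons of groups, 948 of the values under another setting kept their direction and their side of the threshold, 17 passed the threshold newly, 7 no longer passed it and 68 changed sign. None of the 68 had an adjusted p under 0.05 (0 of 68), and all but 7 of them came from leaving out 1 library. With the replicate number as a block, 5 members were called with DMF at 4 h and 4 between DMF and MMF at each time, and Sqstm1 passed the threshold at 4 h with an unchanged log2 fold change of 0.213 in both comparisons (adjusted p 0.0062 and 0.0053). The block also gave 1 member, Sqstm1, in the difference of the DMF effects between times, as did edgeR and DESeq2 (1 each). It added Wipi1 to the members called with DMF at 24 h and changed no other call of a member. DESeq2 and the spread of all 30 libraries each called 1 member, Gabarapl1, with DMF at 4 h, and the latter also called 1, Gabarapl1, between DMF and MMF at 4 h. Leaving out 1 library gave 0 to 3 members with DMF at 24 h, and a log2 fold change of Sqstm1 of 0.682 to 0.913. The lowest count came without DMSO replicate 1, where the value for Sqstm1 was 0.732. Between DMF and MMF at 24 h the range was 0 to 2 members, with Sqstm1 at 0.554 to 0.785, and in the difference of the DMF effects it was 0 to 1. Each of these fits rested on fewer libraries, and 2 remained in the group that lost one. The causes of the other shifts were not tested.

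The 7 were all next to 0. With MMF at 4 h, Sqstm1 was at 0.00363 by edgeR, 0.000755 by DESeq2 and 0.00144 with TMM scaling, and Becn1 was at 0.00188 by edgeR, 0.00525 with TMM scaling and 8.83e-05 with the spread of all 30 libraries. With DMF at 24 h, Becn1 was at 0.00167 by edgeR. Without 1 library, the log2 fold changes of 31 pairs of a member and a comparison took both signs. For DMF over DMSO at 4 h, Map1lc3a ran from -0.0113 to 0.190. With DMF over DMSO at 24 h, Becn1 ran from -0.0537 to 0.0317 and Atg7 from -0.178 to 0.00271. For MMF over DMSO at 4 h, Becn1 ran from -0.0369 to 0.0331, Sqstm1 from -0.0790 to 0.0726, Map1lc3a from -0.139 to 0.0835, Wipi1 from -0.162 to 0.378, Ulk1 from -0.120 to 0.0994, Atg7 from -0.163 to 0.0860, Tfeb from -0.203 to 0.323, Atg5 from -0.00604 to 0.0777 and Map1lc3b from -0.00574 to 0.0728. With MMF over DMSO at 24 h, Atg7 ran from -0.150 to 0.0293, Map1lc3b from -0.0908 to 0.0417, Becn1 from -0.0183 to 0.0718 and Gabarapl1 from -0.0434 to 0.0410. For CBD over EtOH at 4 h, Map1lc3a ran from -0.0406 to 0.0724, Wipi1 from -0.193 to 0.187, Atg5 from -0.111 to 0.0300, Map1lc3b from -0.0130 to 0.0225, Sqstm1 from -0.0858 to 0.00175, Gabarapl1 from -0.114 to 0.0156, Tfeb from -0.205 to 0.290 and Becn1 from -0.0605 to 0.00292. With CBD over EtOH at 24 h, Ulk1 ran from -0.0468 to 0.107, Atg7 from -0.0309 to 0.166, Tfeb from -0.442 to 0.240 and Wipi1 from -0.260 to 0.0756. For DMF over MMF at 4 h, Wipi1 ran from -0.0505 to 0.488. With DMF over MMF at 24 h, Atg7 ran from -0.0899 to 0.0278 and Tfeb from -0.218 to 0.194.

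With 3 libraries a group, a member such as Tfeb, with 25 to 120 reads per library, has intervals over 1 log2 unit wide, and a missed threshold does not show that 2 groups were alike. RNA levels measure neither protein nor autophagic flow. Levels were not compared between genes, since no exon lengths were used.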
